A study of Mus musculus with 18 samples.

Results

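Vehicle liver was set against vehicle colon to describe how the tissues differed before any drug: messenger RNA was compared gene by gene in 6 of the 18 libraries of a study of RECTAS, a small molecule that alters splicing. Liver was represented by 3 libraries and colon by 3 libraries, all from C57BL/6N mice aged 7 weeks that had been given only the vehicle, 0.5% carboxymethyl cellulose (CMC), by mouth in doses 4 h apart, with tissue taken 8 h after the initial dose. Genes with at least 1 TPM (transcripts out of a fixed total that is equal in every library, after allowing for gene length) in at least 3 of these 6 libraries were retained, which gave 14459 of 55401 annotated genes. The rule kept 3175 genes that reached 1 TPM in exactly 3 libraries and left out 759 that did so in exactly 2. The labels do not say whether the 3 libraries of a tissue came from separate animals, whether 1 animal gave both tissues, or what the replicate numbers mean, so p-values measure the spread between these libraries, which may be technical. These values hold no read numbers, and how deeply a library was sequenced is therefore unknown. Values are given for libraries 1, 2 and 3 of each tissue in that order, means are ± SD with n = 3 libraries per tissue, and differences are liver minus colon on the log2(TPM + 1) scale, which understates differences of genes near 0.

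The liver is the main site at which plasma proteins, bile acids and urea are made and at which nutrients and foreign compounds arriving from the gut are converted, and most of its RNA comes from hepatocytes. The colon recovers salt, water and bacterial short-chain fatty acids through absorptive colonocytes, is covered with mucus from goblet cells and renews its epithelium from dividing crypt cells, with a wall of smooth muscle and nerves beneath. Both organs arise from the gut endoderm and share several epithelial transcription factors, among them the HNF1 and HNF4 families, whereas CDX factors are kept to the intestine.

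The tissue labels were checked with marker genes. Alb, which encodes albumin, stood at 62112, 71491 and 57361 TPM in liver and 0.43, 0.35 and 1.48 TPM in colon (log2 difference 15.20, SE 0.23, adjusted p = 2.53e-09). Slc26a3, the chloride and bicarbonate exchanger of colonocytes, stood at 0.12, 0 and 0.05 TPM in liver and 335, 322 and 171 TPM in colon (log2 difference -7.97, SE 0.25, adjusted p = 9.43e-08). Both markers separated the tissues without overlap, and each was at or near 0 in the other tissue. Xist, the transcript of the inactive X chromosome, stood at 73.5, 95.1 and 94.6 TPM in liver and 141, 145 and 110.5 TPM in colon, and the Y-linked genes Ddx3y, Kdm5d, Uty and Eif2s3y were listed at 0 in all 6 libraries. The sex of the mice is not among the labels.

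Promoters of some of the genes that separated the tissues most are printed to show the DNA at their starts. Each runs 5′ to 3′ on the gene's own strand from 250 bases before to 50 bases after the RefSeq start (GRCm38.p6). Capitals mark GTTAAT, the core letters of an HNF1 site, on either strand (ATTAAC where it lies on the opposite strand), and TATAAA, the TATA box, on either strand. Alb lies at chr5:90460620-90460919 (plus strand), Fgb at chr3:83049814-83050113 (minus), Fga at chr3:83025903-83026202 (plus), Serpina1c at chr12:103904901-103905200 (minus), Slc26a3 at chr12:31437969-31438268 (plus) and Krt20 at chr11:99438104-99438403 (minus).
Alb: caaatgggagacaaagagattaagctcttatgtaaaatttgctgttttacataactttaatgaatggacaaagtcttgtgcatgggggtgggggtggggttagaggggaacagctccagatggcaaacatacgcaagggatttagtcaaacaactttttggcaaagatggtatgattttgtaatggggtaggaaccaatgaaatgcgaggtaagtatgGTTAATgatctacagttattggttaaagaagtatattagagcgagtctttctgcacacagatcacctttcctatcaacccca
Fgb: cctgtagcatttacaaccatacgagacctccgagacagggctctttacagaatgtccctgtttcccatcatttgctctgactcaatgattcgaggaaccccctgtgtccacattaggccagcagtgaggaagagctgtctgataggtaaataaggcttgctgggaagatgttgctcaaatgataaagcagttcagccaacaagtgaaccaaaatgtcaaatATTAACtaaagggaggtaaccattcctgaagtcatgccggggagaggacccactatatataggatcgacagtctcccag
Fga: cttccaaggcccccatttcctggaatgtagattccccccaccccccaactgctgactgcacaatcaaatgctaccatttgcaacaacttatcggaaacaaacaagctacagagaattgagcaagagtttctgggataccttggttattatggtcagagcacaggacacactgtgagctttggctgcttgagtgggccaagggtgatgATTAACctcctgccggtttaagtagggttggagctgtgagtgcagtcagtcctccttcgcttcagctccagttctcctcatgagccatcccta
Serpina1c: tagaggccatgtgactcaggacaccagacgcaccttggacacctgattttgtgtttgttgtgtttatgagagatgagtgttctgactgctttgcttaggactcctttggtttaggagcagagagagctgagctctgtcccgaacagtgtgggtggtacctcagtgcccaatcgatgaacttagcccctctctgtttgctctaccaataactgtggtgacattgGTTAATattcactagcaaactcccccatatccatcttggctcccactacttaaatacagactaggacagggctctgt
Slc26a3: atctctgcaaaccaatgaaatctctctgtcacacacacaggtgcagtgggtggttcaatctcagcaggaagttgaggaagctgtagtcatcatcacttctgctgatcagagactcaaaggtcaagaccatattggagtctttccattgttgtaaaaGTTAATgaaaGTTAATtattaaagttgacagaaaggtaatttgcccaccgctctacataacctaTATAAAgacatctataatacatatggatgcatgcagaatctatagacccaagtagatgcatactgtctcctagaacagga
Krt20: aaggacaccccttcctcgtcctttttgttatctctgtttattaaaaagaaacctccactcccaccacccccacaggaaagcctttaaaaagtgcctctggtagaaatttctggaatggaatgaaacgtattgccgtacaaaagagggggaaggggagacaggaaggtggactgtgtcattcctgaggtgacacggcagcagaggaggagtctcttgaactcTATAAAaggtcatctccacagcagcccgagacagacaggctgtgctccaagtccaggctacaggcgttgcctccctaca

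In the liver genes Alb, Fgb, Fga and Serpina1c the GTTAAT letters begin 32, 29, 43 and 27 bases before the start. The colon gene Slc26a3 holds GTTAAT as well, at 94 and 84 bases before its start, followed by TATAAA at 30. Of the 10 protein-coding genes with the largest difference toward liver, 9 matched a promoter and 6 of these held GTTAAT. The 6 were Alb, Gc and the near-identical copies Serpina1a, Serpina1b, Serpina1c and Serpina1e, so they are not independent. Ahsg, Apoa1 and Mup3 held none. Of the promoters printed, only those of Alb and Serpina1c belong to these 10 genes. Of the 10 with the largest difference toward colon, 6 matched and 1 held it. GTTAAT occurred in 12.5% of the promoters of genes at least 4-fold higher in liver, in 4.61% of those of genes at least 4-fold lower in liver, in 5.04% of those of all retained genes and in 7.10% of all promoters in the table. The HNF4 letters CAAAGTCCA were in 2.20%, 0.733%, 0.596% and 0.475% of the same groups in that order, and TATAAA in 17.1%, 10.004%, 8.14% and 13.6%. TTTATG, a match for CDX factors, was in 11.2%, 8.67%, 7.16% and 11.8%. All motifs were searched on both strands, their letters were chosen after promoters had been seen, and the counts are descriptions of these windows.

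Most genes differed between the tissues. By limma with Benjamini-Hochberg adjustment at 0.05, 2482 of 14459 genes (17.2%) were higher in liver and 9661 (66.8%) were lower. Liver RNA was concentrated in fewer genes, since the 100 highest held 57.8 to 60.02% of TPM in liver and 45.2 to 46.4% in colon, and 50% of TPM lay in 46 to 51 genes in liver and 141 to 152 in colon. The median log2 difference over all genes was -0.82. After median ratio scaling, which centres the libraries on each other, it was -0.03, and 5234 genes (36.2%) were higher and 5573 (38.5%) lower. The share of calls higher in liver thus moved between 20.4% and 48.4%, and 951 genes called lower as deposited were called higher after scaling, so small differences are read against that median.

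Gene groups are therefore described by genes that passed the test with a log2 difference of at least 2, here called at least 4-fold. Over all genes 973 (6.73%) were at least 4-fold higher in liver and 2398 (16.6%) at least 4-fold lower. After median ratio scaling these shares were 9.7% and 9.88%, and a printed count of a list is given after that scaling too where it differs by over 1.5 times. Of the retained genes, 754 reached 1 TPM in every liver and no colon library and 2333 in every colon and no liver library, so they entered through the tissue in which they were high. A bulk sample cannot tell fewer cells of a type from less RNA per cell.

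**Figure D1:**
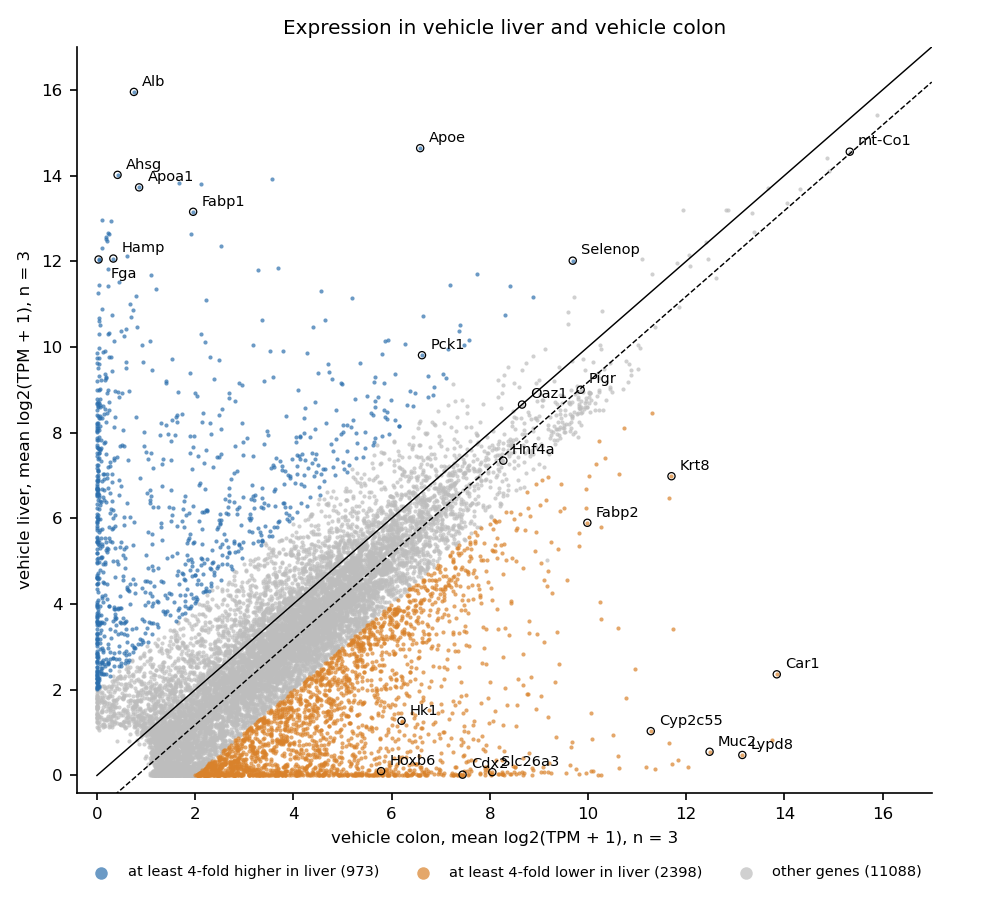
Mean expression of 14459 genes, log2(TPM + 1), with vehicle liver on the vertical axis and vehicle colon on the horizontal axis (n = 3 libraries each). Blue points were at least 4-fold higher in liver (973 genes), orange points at least 4-fold lower (2398), the solid line marks equal levels and the dashed line marks the median log2 difference of -0.82.

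Secreted plasma proteins were among the largest differences toward liver. All 34 listed plasma protein genes were retained and at least 4-fold higher in liver (median log2 difference 9.89), and together they held 17.4 to 18.7% of TPM in liver and 0.0779 to 0.0996% in colon. Ahsg, which encodes fetuin-A, a carrier that keeps calcium phosphate in solution, stood at 14337, 17086 and 18576 TPM in liver and 0.14, 0.41 and 0.49 TPM in colon (log2 difference 13.60, SE 0.14, adjusted p = 7.10e-10). Trf, the iron carrier transferrin, stood at 14864, 15837 and 15449.9 TPM in liver and 11.5, 8.85 and 12.2 TPM in colon (log2 difference 10.35, SE 0.12, adjusted p = 9.61e-10). Gc, the vitamin D-binding protein, stood at 6063, 6230.2 and 5959.8 TPM in liver and 0, 0.15 and 0.26 TPM in colon (log2 difference 12.39, SE 0.10, adjusted p = 3.68e-10). For each of these genes every liver library stood far above every colon library. The highest liver genes also included Serpina1a, Serpina1b, Serpina1c and Serpina1e, copies of alpha-1-antitrypsin, with 7929 ± 477 TPM in liver and 0.08 ± 0.106 TPM in colon for Serpina1c. Reads of these near-identical copies could have been divided among them in ways that cannot be seen here. Selenop, a selenium carrier, was the listed gene with the most RNA in colon, at 3805, 4254 and 4364 TPM in liver and 804, 739 and 944 TPM in colon (log2 difference 2.32, SE 0.11, adjusted p = 9.70e-07).

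Lipoprotein, clotting and complement genes were mostly high in liver. Of 18 apolipoprotein and lipoprotein genes 17 were at least 4-fold higher in liver, led by Apoa1, the main protein of high-density lipoprotein, at 11492, 14566 and 14809 TPM in liver and 0.22, 0.86 and 1.63 TPM in colon (log2 difference 12.87, SE 0.26, adjusted p = 1.04e-08). Apoe, the remnant lipoprotein ligand, averaged 25545 ± 1403 TPM in liver and 96.3 ± 20.8 TPM in colon. Lpl, the lipase of muscle and fat capillaries, was the member that did not pass the test, at 22.02, 4.91 and 6.40 TPM in liver and 17.1, 20.9 and 21.05 TPM in colon (adjusted p = 0.0699), with liver library 1 above the other two, and it was called lower in liver without that library (adjusted p = 0.000111). In clotting and fibrinolysis, 21 of 29 retained were at least 4-fold higher in liver, among them the fibrinogen chain genes Fga, Fgb and Fgg. Fga stood at 4601, 3855 and 4218 TPM in liver and 0.02, 0.03 and 0.02 TPM in colon (log2 difference 12.01, SE 0.09, adjusted p = 3.25e-10). The tissue factor gene F3, which starts clotting at vessel walls and epithelia, was lower in liver at 5.83 ± 2.19 TPM in liver and 18.7 ± 2.59 TPM in colon (log2 difference -1.57, SE 0.23, adjusted p = 0.000352). Of 27 retained complement genes 24 were at least 4-fold higher in liver, among them C3, the central component, at 3584 ± 419 TPM in liver and 8.94 ± 3.09 TPM in colon, and the macrophage-made C1qa at 60.98 ± 8.23 TPM in liver and 12.3 ± 2.19 TPM in colon. Cfd, the adipocyte protease that activates the alternative pathway, ran the other way: it was listed at 0 in every liver library and at 50.6, 46.4 and 26.3 TPM in colon (log2 difference -5.34, SE 0.24, adjusted p = 5.88e-07).

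Some liver genes with large differences lay beside each other in known gene clusters. The clusters were chosen by name with earlier results known, so the counts describe these spans only. Adjacency over the whole genome was not examined. The 3 fibrinogen genes span 42140 bases of chromosome 3 (83007724 to 83049863, GRCm38), and all 3 coding genes in that span were at least 4-fold higher in liver. On chromosome 9 (46228580 to 46271919) the same held for all 4 coding genes, Apoa1, Apoc3, Apoa4 and Apoa5. The serpin A region of chromosome 12 (103614786 to 104414329) held 23 coding genes, of which 13 were retained and 11 were at least 4-fold higher in liver, and its genes together held 4.02 to 4.25% of TPM in liver and 3.45e-04 to 5.52e-04% in colon. In the major urinary protein region of chromosome 4 (60498012 to 62150863) 12 of 16 coding genes were at least 4-fold higher in liver. Mup3 led them at 4589.7, 6269.6 and 6444 TPM in liver and 0.15, 0 and 0.31 TPM in colon (log2 difference 12.28, SE 0.16, adjusted p = 1.48e-09). As in the serpin region, near-identical copies make the split among these genes uncertain.

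Genes that process nitrogen, glucose and amino acids were high in liver with uneven reach into colon. All 8 urea cycle genes were called higher in liver, 6 of them at least 4-fold. Cps1, the mitochondrial entry enzyme, stood at 1382, 949.8 and 1037 TPM in liver and 1.41, 4.87 and 5.85 TPM in colon (log2 difference 7.92, SE 0.38, adjusted p = 8.78e-07), and Arg1, the arginase that releases urea, averaged 1414 ± 228 TPM in liver and 0.81 ± 0.547 TPM in colon. Nags, whose product switches Cps1 on, differed less, at 36.6 ± 4.85 TPM in liver and 14.4 ± 3.19 TPM in colon (log2 difference 1.30, SE 0.17, adjusted p = 0.000222). Of 30 genes of amino acid breakdown 26 were at least 4-fold higher in liver (median 6.53). Among 14 glucose output and glycogen genes 11 were at least 4-fold higher and 2 at least 4-fold lower in liver. G6pc, which releases free glucose, averaged 199 ± 133 TPM in liver and 0.0133 ± 0.0231 TPM in colon. Pck1, the cytosolic gluconeogenic enzyme, was well expressed in colon too, at 856, 832 and 1007 TPM in liver and 79.2, 103 and 113 TPM in colon (log2 difference 3.19, SE 0.15, adjusted p = 6.99e-07). The mitochondrial form Pck2 and the bisphosphatase form Fbp2 were the members lower in liver. Fbp2 stood at 0.03, 0.16 and 0.28 TPM in liver and 144, 167 and 163 TPM in colon (log2 difference -7.11, SE 0.12, adjusted p = 4.34e-09), whereas the liver form Fbp1 stood at 887, 800.2 and 825 TPM in liver and 1.24, 2.23 and 2.29 TPM in colon (log2 difference 8.19, SE 0.16, adjusted p = 7.36e-09).

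Bile acid genes split by where the acids are handled. All 14 synthesis genes were higher in liver, 13 at least 4-fold, with Cyp7a1, the rate-limiting enzyme, at 70.6, 146 and 107 TPM in liver and 0, 0.01 and 0 TPM in colon (log2 difference 6.70, SE 0.24, adjusted p = 2.03e-07). Among 15 transporter and binding genes 9 were at least 4-fold higher and 5 at least 4-fold lower in liver. Slc10a1, the hepatocyte uptake carrier, and Abcb11, the export pump into bile, averaged 632 ± 125 TPM in liver and 0.133 ± 0.0451 TPM in colon and 159.9 ± 12.8 TPM in liver and 0.0633 ± 0.0404 TPM in colon. The intestinal recovery genes ran the opposite way. Slc10a2, the apical uptake carrier, stood at 6.25, 4.51 and 3.45 TPM in liver and 77.8, 188 and 182 TPM in colon (log2 difference -4.64, SE 0.35, adjusted p = 1.06e-05). Slc51a, a subunit of the basolateral exporter, stood at 0.06, 0.18 and 0.21 TPM in liver and 149, 316 and 313 TPM in colon (log2 difference -7.75, SE 0.28, adjusted p = 2.07e-07). Fabp6, which carries bile acids through the cell, was listed at 0 in every liver library and at 26.02, 100.2 and 80.7 TPM in colon. Slc10a2, Slc51a and Fabp6 were each lowest in colon library 1 among the colon libraries.

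Some families of detoxifying enzymes held liver genes and colon genes. Of 30 retained cytochrome P450 genes 22 were at least 4-fold higher and 5 at least 4-fold lower in liver. Cyp2e1, which oxidises ethanol and small solvents, stood at 4190.4, 5758 and 5933 TPM in liver and 6.63, 4.77 and 3.43 TPM in colon (log2 difference 9.82, SE 0.22, adjusted p = 1.57e-08). Within the Cyp2c genes, Cyp2c29 averaged 635 ± 73.1 TPM in liver and 0.133 ± 0.116 TPM in colon, while Cyp2c55 stood at 1.67, 0.83 and 0.76 TPM in liver and 2001, 3662 and 2089.9 TPM in colon (log2 difference -10.24, SE 0.26, adjusted p = 3.39e-08) and Cyp2c65 at 0, 0.02 and 0.05 TPM in liver and 256, 482 and 414 TPM in colon (log2 difference -8.51, SE 0.22, adjusted p = 3.64e-08). Cyp2c55 and Cyp2c65 lay far above every liver library in all 3 colon libraries. Cyp2s1 and Cyp2w1 were also colon genes, with 0.157 ± 0.0666 TPM in liver and 96.2 ± 7.0 TPM in colon for Cyp2s1. Conjugation enzymes were closer to balance, with 16 of 35 at least 4-fold higher in liver and 6 at least 4-fold lower. Over all genes these shares were 6.73% and 16.6%, so the colon-side counts of the P450 and conjugation lists are near the background. Ugt2a3, a glucuronosyltransferase, was listed at 0 in colon and at 148, 145 and 135 TPM in liver, and Ces1c, a carboxylesterase, averaged 2791 ± 269 TPM in liver and 0.0267 ± 0.0306 TPM in colon. Ces2c, of the other carboxylesterase family, stood at 5.95, 12.7 and 9.57 TPM in liver and 415, 512 and 405 TPM in colon (log2 difference -5.46, SE 0.24, adjusted p = 5.29e-07), and Sult1b1, a sulfotransferase, at 26.9, 25.6 and 27.5 TPM in liver and 191, 236 and 188 TPM in colon (log2 difference -2.89, SE 0.11, adjusted p = 2.14e-07). Sult1a1 did not pass the test, at 487 ± 119 TPM in liver and 524 ± 51.1 TPM in colon (adjusted p = 0.504). It had a log2 difference of 0.80 after median ratio scaling (adjusted p = 0.0093), and as deposited it was called lower without liver library 1 (adjusted p = 0.0443).

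Several iron genes were high in liver. Hamp, the hormone hepcidin that closes iron export, stood at 5786, 3223 and 4199 TPM in liver and 0.17, 0.18 and 0.45 TPM in colon (log2 difference 11.73, SE 0.21, adjusted p = 5.42e-09), and its sensors Tfr2 and Hjv were also at least 4-fold higher in liver, with 216 ± 11.7 TPM in liver and 0.103 ± 0.0115 TPM in colon for Tfr2. Heph, the ferroxidase that passes iron out of enterocytes, stood at 0.33, 0.25 and 0.39 TPM in liver and 58.9, 77.1 and 60.4 TPM in colon (log2 difference -5.64, SE 0.13, adjusted p = 2.32e-08). Tfrc, the receptor for transferrin-bound iron, stood at 4.82, 6.68 and 7.89 TPM in liver and 74.3, 57.5 and 45.9 TPM in colon (log2 difference -3.01, SE 0.21, adjusted p = 7.53e-06). In all, 6 of 14 retained iron genes were at least 4-fold higher in liver and 2 at least 4-fold lower, where the shares over all genes were 6.73% and 16.6%, so the count on the colon side is near the background.

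**Figure D2:**
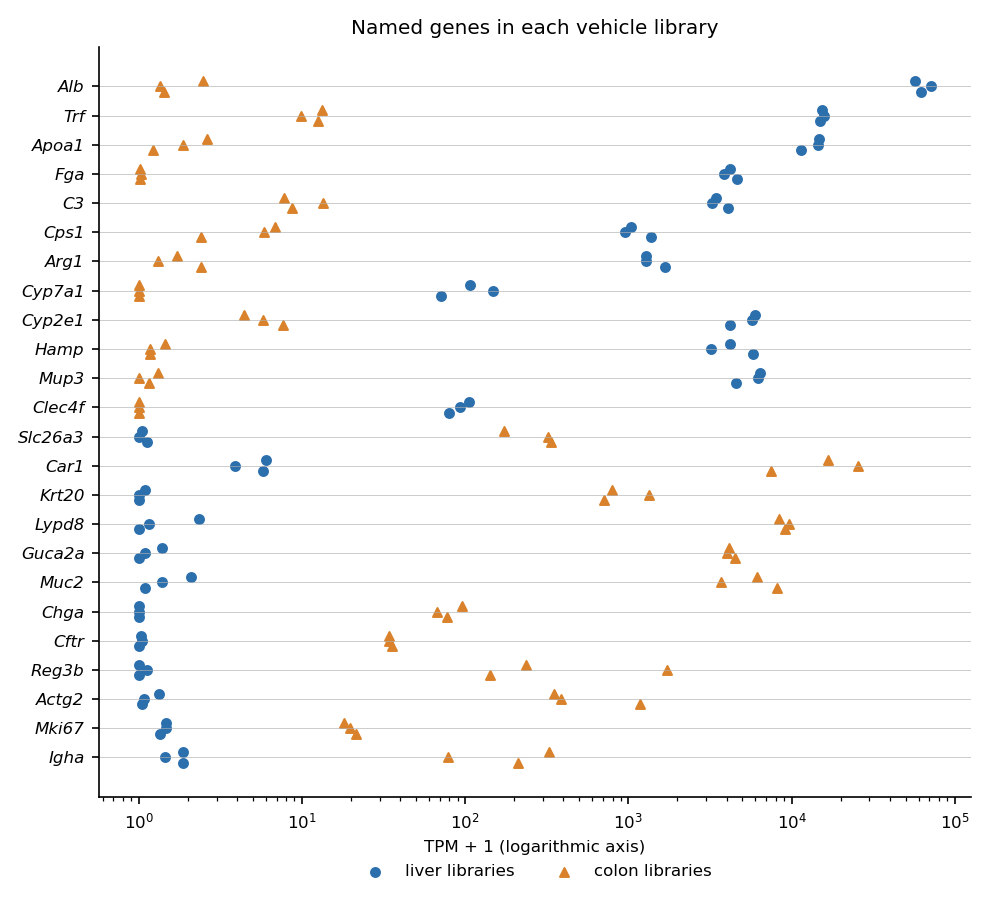
Expression of 24 named genes in each of the 6 vehicle libraries on a logarithmic axis, TPM + 1. Blue circles are liver libraries and orange triangles colon libraries, and in every row shown the 3 liver libraries and the 3 colon libraries do not overlap. Over all genes the liver libraries were all above the colon libraries in 17.5% and all below in 67.9%.

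Absorptive colonocyte genes were among the largest differences toward colon. Of 40 listed genes 38 were retained and 36 were at least 4-fold lower in liver (median -7.61). Lypd8, which keeps flagellated bacteria off the epithelium, stood at 0, 0.16 and 1.33 TPM in liver and 9151, 9615 and 8412 TPM in colon (log2 difference -12.66, SE 0.29, adjusted p = 1.93e-08). Guca2a, the peptide guanylin that sets fluid secretion, stood at 0, 0.09 and 0.39 TPM in liver and 4516, 4027 and 4155 TPM in colon (log2 difference -11.85, SE 0.13, adjusted p = 8.53e-10). Car1, a carbonic anhydrase of colonocytes, stood at 4.78, 2.87 and 5.05 TPM in liver and 7456, 25529 and 16720.3 TPM in colon (log2 difference -11.48, SE 0.42, adjusted p = 2.21e-07). Every colon library was above every liver library for these genes, and Car1 was lowest in colon library 1 and highest in library 2. Krt20, a keratin of mature surface cells, averaged 0.03 ± 0.052 TPM in liver and 942 ± 339 TPM in colon, and Vil1, the microvillus protein villin, 0.137 ± 0.00577 TPM in liver and 468 ± 89.5 TPM in colon. Sprr2a2, a small proline-rich protein gene, had the largest difference toward colon of all protein-coding genes, at 0, 0.61 and 2.54 TPM in liver and 15656, 17078 and 9721 TPM in colon (log2 difference -12.91, SE 0.44, adjusted p = 1.54e-07). It has near-identical neighbours, so reads may have been divided among them. Aqp8, a water channel used by both organs, did not pass, at 53.05, 76.7 and 52.2 TPM in liver and 92.7, 287 and 37.8 TPM in colon (adjusted p = 0.306), and its colon libraries lay on both sides of the liver libraries. Without colon library 3 it was called lower in liver (adjusted p = 0.0296).

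Ion transport and secretion genes followed, with 18 of 22 retained at least 4-fold lower and 1 at least 4-fold higher in liver. Cftr, the chloride channel of crypt secretion, stood at 0.01, 0.04 and 0.03 TPM in liver and 34.6, 33.1 and 32.99 TPM in colon (log2 difference -5.07, SE 0.10, adjusted p = 9.71e-09). Slc12a2, which loads chloride into those cells, averaged 1.76 ± 0.17 TPM in liver and 73.6 ± 16.3 TPM in colon, and Slc9a3, the apical sodium and proton exchanger, was listed at 0 in liver and at 56.7, 71.9 and 68.9 TPM in colon. Hsd11b2, which protects the mineralocorticoid receptor from glucocorticoids, was likewise at 0 in liver and at 138, 106 and 153 TPM in colon. Aqp9, the glycerol channel of hepatocytes, was the member higher in liver, at 193, 239 and 225 TPM in liver and 0.06, 0.28 and 0.03 TPM in colon (log2 difference 7.61, SE 0.13, adjusted p = 4.70e-09).

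Mucus, hormone and defence genes were mostly on the colon side. All 20 retained goblet cell genes were at least 4-fold lower in liver. Muc2, the gel-forming mucin, stood at 0.09, 0.38 and 1.10 TPM in liver and 8186, 3697 and 6107 TPM in colon (log2 difference -11.92, SE 0.33, adjusted p = 5.07e-08), and Zg16, a lectin of the mucus layer, averaged 0.357 ± 0.618 TPM in liver and 3668 ± 729.8 TPM in colon. Atoh1, the transcription factor that sets the secretory fate, was listed at 0 in liver and at 39.1, 24.3 and 49.9 TPM in colon. Of 17 retained enteroendocrine genes 16 were at least 4-fold lower in liver, where the share over all genes was 16.6%. The 20 listed summed to only 0.23 to 0.59 TPM in liver. The retained members thus entered through colon alone and could only be lower in liver. Chga, a granule protein, was listed at 0 in liver and at 76.3, 66.4 and 94.2 TPM in colon, Sst, the hormone somatostatin, was at 0 in liver and at 66.3, 68.1 and 62.8 TPM in colon, and Pyy, a hormone that slows gut movement, averaged 0.127 ± 0.219 TPM in liver and 96.6 ± 17.8 TPM in colon. Tuft cell genes were lower in level, with 4 of 12 at least 4-fold lower in liver, led by the taste channel gene Trpm5 at 0.06 ± 0.0361 TPM in liver and 9.53 ± 2.19 TPM in colon. Among 22 retained mucosal defence genes 14 were at least 4-fold lower in liver. Reg3b, a bactericidal lectin, stood at 0, 0.12 and 0 TPM in liver and 141, 1713 and 236 TPM in colon (log2 difference -8.54, SE 0.82, adjusted p = 3.78e-05). Pigr, which carries immunoglobulin A across epithelia, was high in both organs, at 548, 481 and 508 TPM in liver and 1105, 854 and 831 TPM in colon (log2 difference -0.85, SE 0.12, adjusted p = 0.000381). It had a log2 difference of 0.08 after median ratio scaling (adjusted p = 0.562). Lcn2, an iron-trapping defence protein, was the member at least 4-fold higher in liver, at 27.5, 33.5 and 22.7 TPM in liver and 2.10, 1.02 and 1.12 TPM in colon (log2 difference 3.59, SE 0.21, adjusted p = 2.55e-06).

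Cell division genes were on the colon side. All 22 cell cycle genes were called lower in liver and 17 at least 4-fold. Mki67, present in dividing cells, stood at 0.35, 0.46 and 0.46 TPM in liver and 20.3, 18.7 and 17.1 TPM in colon (log2 difference -3.79, SE 0.12, adjusted p = 8.70e-08), and Top2a, which untangles replicated DNA, averaged 0.997 ± 0.281 TPM in liver and 36.1 ± 2.37 TPM in colon. The crypt stem cell list was mixed, with 6 of 15 at least 4-fold lower in liver. Ascl2, the stem cell factor, was listed at 0 in liver and at 2.43, 2.21 and 3.69 TPM in colon (log2 difference -1.90, SE 0.16, adjusted p = 1.91e-05). Lgr5, the Wnt receptor partner that marks crypt stem cells and is also used by hepatocytes near central veins, did not pass, at 2.50, 3.91 and 2.95 TPM in liver and 4.23, 2.64 and 3.45 TPM in colon (adjusted p = 0.606), with a log2 difference of 0.60 after median ratio scaling (adjusted p = 0.0124).

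Junction and cytoskeletal genes exchanged members. Of 22 claudin and junction genes 13 were at least 4-fold lower and 4 at least 4-fold higher in liver. Cldn7, an epithelial tight junction protein, stood at 0.37, 1.24 and 0.32 TPM in liver and 744, 874 and 789 TPM in colon (log2 difference -8.97, SE 0.20, adjusted p = 1.84e-08), whereas Cldn1 stood at 39.9, 24.8 and 25.8 TPM in liver and 0.09, 0.03 and 0.23 TPM in colon (log2 difference 4.77, SE 0.20, adjusted p = 4.02e-07). The gap junction genes Gjb1 and Gjb2, which couple hepatocytes, were liver genes, with 567 ± 53.7 TPM in liver and 30.96 ± 4.68 TPM in colon for Gjb1. Of the keratins, Krt8 and Krt18 form the filament pair of both organs. Krt8 stood at 142, 123 and 113 TPM in liver and 3209, 3721 and 3082 TPM in colon (log2 difference -4.72, SE 0.11, adjusted p = 2.47e-08), and Krt18 at 196, 166 and 172 TPM in liver and 391, 247 and 259 TPM in colon (log2 difference -0.71, SE 0.18, adjusted p = 0.00642), with a log2 difference of 0.21 after median ratio scaling (adjusted p = 0.275). Krt19, which joins them in simple ducts and mucosa, averaged 0.693 ± 0.224 TPM in liver and 3210.1 ± 214 TPM in colon.

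Genes of muscle and nerve layers were on the colon side. Of 17 retained smooth muscle genes 15 were at least 4-fold lower in liver. Actg2, the enteric smooth muscle actin, stood at 0.05, 0.08 and 0.33 TPM in liver and 1183, 388 and 349 TPM in colon (log2 difference -8.89, SE 0.43, adjusted p = 9.97e-07), and Myh11, the smooth muscle myosin heavy chain, averaged 0.59 ± 0.178 TPM in liver and 315 ± 159.6 TPM in colon. Cald1, shared by smooth muscle and other contractile cells, did not pass, at 75.4, 84.5 and 92.1 TPM in liver and 191, 70.9 and 63.1 TPM in colon (adjusted p = 0.675), and colon library 1 was above every liver library. Enteric neuron, glia and pacemaker genes were called lower in liver in all 17 retained members, 9 at least 4-fold, with the synaptic gene Snap25 listed at 0 in liver and at 19.6, 16.6 and 12.3 TPM in colon. Matrix genes were less divided, as 10 of 22 were at least 4-fold lower and 2 at least 4-fold higher in liver, and after median ratio scaling 3 were at least 4-fold lower. Fn1, fibronectin, which hepatocytes secrete into plasma, was on the liver side at 574, 717 and 725 TPM in liver and 42.5, 14.7 and 16.4 TPM in colon (log2 difference 4.88, SE 0.36, adjusted p = 9.75e-06), and Col3a1, a fibrillar collagen, on the colon side at 12.3 ± 1.90 TPM in liver and 65.9 ± 32.3 TPM in colon.

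**Figure D3:**
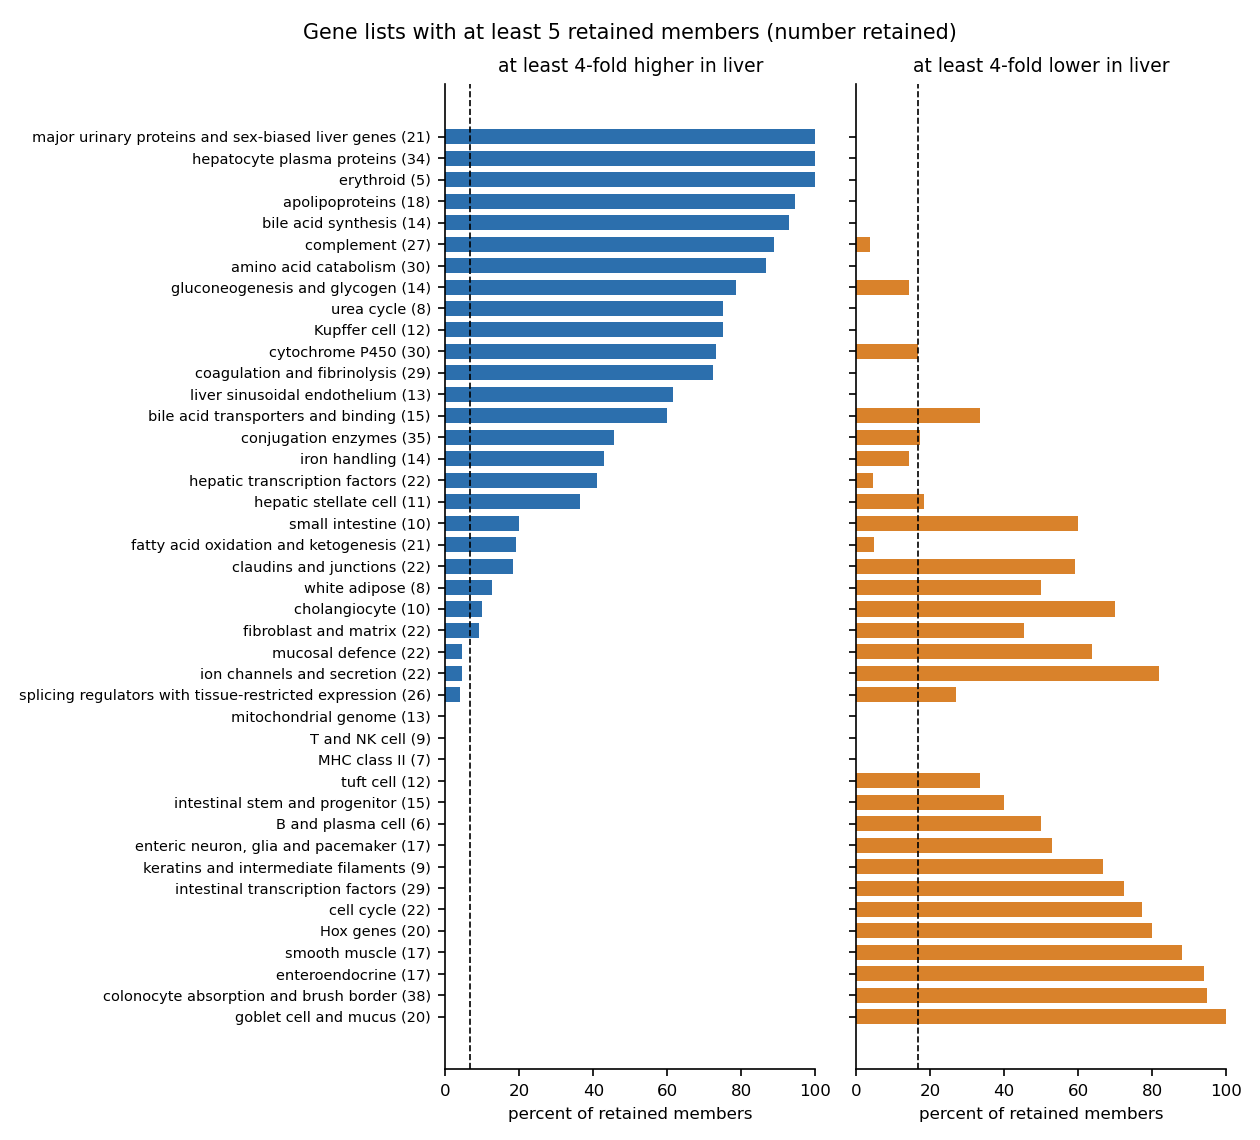
Share of the retained members of each gene list that were at least 4-fold higher in vehicle liver (left panel, blue) or at least 4-fold lower (right panel, orange), in percent, with the number of retained members beside each name. Dashed lines give the same shares over all 14459 genes, 6.73% and 16.6%.

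Among lists of resident liver cells other than hepatocytes, those of Kupffer cells and sinusoidal endothelium lay mostly toward liver. The stellate cell list was mixed, and the cholangiocyte list lay mostly toward colon. Over all genes 6.73% were at least 4-fold higher in liver and 16.6% at least 4-fold lower. Of 12 retained Kupffer cell genes, the macrophages of liver sinusoids, 9 were at least 4-fold higher in liver. Clec4f, their defining lectin, was listed at 0 in colon and at 78.4, 91.5 and 104 TPM in liver (log2 difference 6.52, SE 0.13, adjusted p = 8.30e-09). Sinusoidal endothelial genes were at least 4-fold higher in 8 of 13 retained members, with the scavenger receptor Stab2 at 16.5 ± 3.39 TPM in liver and 0.153 ± 0.101 TPM in colon. Stellate cell genes were mixed, 4 of 11 at least 4-fold higher and 2 lower, and Lrat, which stores retinol as ester, did not pass, at 5.09 ± 0.578 TPM in liver and 5.89 ± 0.608 TPM in colon (adjusted p = 0.231), with a log2 difference of 0.60 after median ratio scaling (adjusted p = 0.00158). Cholangiocyte genes were mostly shared with colon epithelium, and 7 of 10 were at least 4-fold lower in liver, among them Krt19 and Epcam, which colonocytes also express. Spp1, osteopontin, was the member higher in liver, at 31.8 ± 6.63 TPM in liver and 0.33 ± 0.183 TPM in colon.

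Few lymphocyte genes were retained, 6 of 16 B and plasma cell genes and 9 of 21 T and NK cell genes. Plasma cell products were on the colon side: Igha, the heavy chain of immunoglobulin A, stood at 0.86, 0.44 and 0.88 TPM in liver and 210.5, 77.5 and 325 TPM in colon (log2 difference -6.68, SE 0.47, adjusted p = 7.07e-06), and Jchain, which joins its units, averaged 0.59 ± 0.312 TPM in liver and 63.8 ± 30.6 TPM in colon. Cd79b, a part of the B cell receptor, was on the liver side, at 2.0, 1.16 and 2.23 TPM in liver and 0.3, 0.4 and 0.49 TPM in colon (log2 difference 0.98, SE 0.17, adjusted p = 0.00103). Of the 9 retained T and NK cell genes, 0 were at least 4-fold apart. In liver 1 was called higher and 5 lower, against 2 and 2 after median ratio scaling. Over all genes 17.2% were called higher and 66.8% lower as deposited, and 36.2% and 38.5% after that scaling. The counts of so few T and NK cell genes do not set them apart from all genes. Class II antigen presentation genes were expressed in both tissues: 0 of 7 retained members were at least 4-fold apart, 2 were called higher and 1 lower in liver, with H2-Aa at 36.98, 34.7 and 23.02 TPM in liver and 36.97, 28.7 and 50.4 TPM in colon (adjusted p = 0.31) and Cd74, their chaperone, at 65.3 ± 13.3 TPM in liver and 39.2 ± 12.4 TPM in colon (log2 difference 0.74, SE 0.23, adjusted p = 0.0189). Without colon library 1, colon library 2 or liver library 1 the call of Cd74 was lost (adjusted p = 0.0628, 0.0629 and 0.0624). After median ratio scaling 6 class II genes were called higher and 0 lower, where the shares over all genes were 36.2% and 38.5%.

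Many related forms of an enzyme, carrier, channel or keratin were exchanged between the tissues by their share of TPM. In 13 of 20 listed sets the form listed for liver held over 50% of the set's TPM in every liver library and under 50% in every colon library. The 13 include the keratins Krt18 and Krt20, though Krt18 itself was called lower in liver as deposited (log2 difference -0.71). They also include the aquaporins Aqp9 and Aqp8, of which Aqp8 did not pass the test. The sets of enolase, acetyl-CoA carboxylase, alcohol dehydrogenase and creatine kinase were among those without such an exchange. In the creatine kinase set the form listed for liver, Ckm, was at 0 in every liver library. Hexokinase 1, Hk1, which traps glucose in the cell, stood at 1.43, 1.36 and 1.47 TPM in liver and 79.3, 72.7 and 66.5 TPM in colon (log2 difference -4.93, SE 0.10, adjusted p = 1.18e-08), without overlap. Pygl held 99.2 ± 0.0239% of glycogen phosphorylase TPM (with Pygb) in liver and 6.12 ± 0.366% in colon. For glycogen synthase Gys2 held 99.1 ± 0.235% in liver and 1.45 ± 1.46% in colon. The same exchange appeared outside sugar metabolism: Mat1a held 97.7 ± 0.741% of methionine adenosyltransferase TPM (with Mat2a) in liver and 0.0113 ± 0.0136% in colon, and Arg1 99.99 ± 0.0128% of arginase TPM (with Arg2) in liver and 5.40 ± 5.14% in colon.

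Fatty acid-binding proteins were exchanged as well. Fabp1, the liver form, stood at 5426, 12238 and 11409 TPM in liver and 3.04, 2.90 and 2.73 TPM in colon (log2 difference 11.20, SE 0.29, adjusted p = 3.48e-08). Fabp2, the intestinal form, stood at 44.5, 69.8 and 64.5 TPM in liver and 832, 1409.5 and 888 TPM in colon (log2 difference -4.09, SE 0.24, adjusted p = 2.61e-06). Fabp1 was lower in liver library 1 than in libraries 2 and 3, and all were far above colon. Carbonic anhydrases were exchanged too, with Car3 at 1040.1, 902 and 832 TPM in liver and 23.7, 23.02 and 11.2 TPM in colon (log2 difference 5.57, SE 0.27, adjusted p = 8.76e-07) against the Car1, Car2 and Car4 genes of colon, so that Car3 held 98.7 ± 0.233% of their sum in liver and 0.141 ± 0.115% in colon. Pyruvate kinase was exchanged by share, though Pklr was present in both tissues. Pklr held 94.7 ± 4.08% of the sum with Pkm in liver and 12.2 ± 0.333% in colon, at 79.7, 256 and 338 TPM in liver and 64.3, 71.7 and 71.6 TPM in colon (log2 difference 1.45, SE 0.48, adjusted p = 0.023), and liver library 1 was closer to the colon libraries than to the other liver libraries. The call of Pklr was lost without colon library 1, 2 or 3 (adjusted p = 0.0708, 0.0584 and 0.0593) and without liver library 2 or 3 (adjusted p = 0.0746 and 0.0664). Some enzymes kept 1 main form in both organs: Cpt1a held 99.2 ± 0.159% of the sum with Cpt1b in liver and 97.4 ± 0.24% in colon, and Ldha 99.4 ± 0.241% of the sum with Ldhb in liver and 97.03 ± 0.897% in colon.

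**Figure D4:**
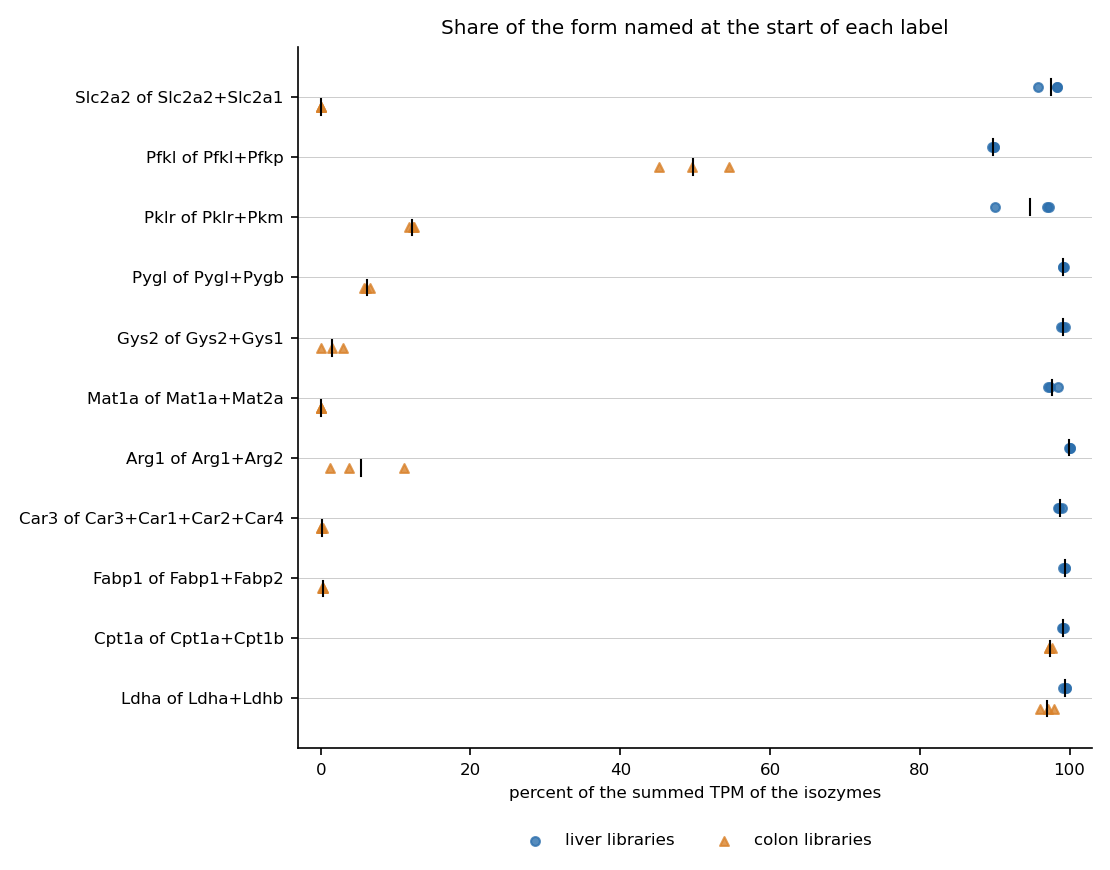
Percent of the summed TPM of a set of isozymes held by the form named at the start of the axis label, in each vehicle library. Only a chosen part of the 20 listed sets is shown. The sets of enolase, acetyl-CoA carboxylase, alcohol dehydrogenase and creatine kinase are among those left out. Blue circles (upper row of each pair) are liver libraries and orange triangles (lower row) colon libraries, with a vertical tick at each mean of 3 libraries.

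Fat burning and ketone genes were called in both directions. Of 21 retained genes 12 were called higher and 7 lower in liver, against 17 and 2 after median ratio scaling. Over all genes 17.2% were called higher and 66.8% lower as deposited, and 36.2% and 38.5% after that scaling. By the larger threshold 4 were at least 4-fold higher and 1 at least 4-fold lower in liver, against 6 and 1 after median ratio scaling. At that threshold the shares over all genes were 6.73% and 16.6% as deposited and 9.7% and 9.88% after scaling. Oxct1, the enzyme by which tissues other than liver burn ketones, stood at 2.45, 1.44 and 1.52 TPM in liver and 87.99, 79.6 and 87.5 TPM in colon (log2 difference -4.96, SE 0.15, adjusted p = 7.92e-08). Cyp4a10 and Cyp4a14, which oxidise the far end of fatty acids, were liver genes, with 158 ± 103 TPM in liver and 0.00667 ± 0.0115 TPM in colon for Cyp4a10.

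Transcription factors separated into liver, colon and shared sets. Of 22 listed hepatic factors 9 were at least 4-fold higher in liver. Onecut1, a factor of hepatocyte and bile duct development, stood at 4.25, 22.5 and 57.3 TPM in liver and 0.01, 0.04 and 0 TPM in colon (log2 difference 4.25, SE 0.76, adjusted p = 0.00119). Nr1i3, the xenobiotic receptor CAR, stood at 133, 253 and 181 TPM in liver and 1.81, 1.24 and 0.6 TPM in colon (log2 difference 6.41, SE 0.28, adjusted p = 5.23e-07), and Cebpa, which drives hepatocyte metabolic genes, at 166, 167 and 170.0 TPM in liver and 25.9, 26.7 and 34.5 TPM in colon (log2 difference 2.50, SE 0.12, adjusted p = 7.84e-07). The intestinal list shares some genes with the hepatic one, and of its 29 factors 21 were at least 4-fold lower in liver. Cdx2, the intestinal homeobox factor, stood at 0, 0 and 0.04 TPM in liver and 169, 169.5 and 182 TPM in colon (log2 difference -7.43, SE 0.09, adjusted p = 1.24e-09), and Cdx1 averaged 0.00667 ± 0.0115 TPM in liver and 188 ± 18.4 TPM in colon. Vdr, the vitamin D receptor, stood at 0.04, 0.01 and 0.06 TPM in liver and 201, 219 and 249.9 TPM in colon (log2 difference -7.75, SE 0.11, adjusted p = 2.02e-09), and Klf4, a factor of surface and goblet cell maturation, averaged 0.487 ± 0.14 TPM in liver and 239.8 ± 27.5 TPM in colon. The liver libraries had under 1 TPM of each of these genes.

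The shared set included the endoderm factors. Hnf4a stood at 149.7, 169 and 167 TPM in liver and 281, 334 and 314 TPM in colon (log2 difference -0.93, SE 0.09, adjusted p = 4.84e-05), close to the median of all genes, and had a log2 difference of -0.01 after median ratio scaling (adjusted p = 0.962). Its relative Hnf4g was a colon gene, at 0.64, 0.17 and 0.44 TPM in liver and 19.1, 21.2 and 17.7 TPM in colon (log2 difference -3.85, SE 0.16, adjusted p = 3.68e-07). Nr1h4, the bile acid receptor FXR, did not pass as deposited, at 65.7, 96.8 and 80.6 TPM in liver and 71.05, 111 and 112 TPM in colon (adjusted p = 0.276), and had a log2 difference of 0.66 after median ratio scaling (adjusted p = 0.0339). As deposited it was called lower in liver without colon library 1 (adjusted p = 0.0366). The forkhead genes, which open liver and gut enhancers, were split. Foxa1 averaged 7.97 ± 2.77 TPM in liver and 36.6 ± 5.26 TPM in colon (log2 difference -2.11, SE 0.24, adjusted p = 8.63e-05) and Foxa2 17.2 ± 2.38 TPM in liver and 6.24 ± 1.89 TPM in colon (log2 difference 1.36, SE 0.20, adjusted p = 0.000444), while Foxa3 did not pass (adjusted p = 0.144) and had a log2 difference of 1.29 after median ratio scaling (adjusted p = 0.000867). Nr0b2, SHP, the repressor that FXR induces, reached 1 TPM in all liver and no colon libraries, at 31.9, 17.5 and 9.56 TPM in liver and 0.12, 0.09 and 0.14 TPM in colon (log2 difference 4.06, SE 0.37, adjusted p = 2.75e-05).

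The retained Hox genes, which record position along the body axis, were lower in liver. Of 39 listed, 20 were retained, 20 were called lower in liver and 16 were at least 4-fold lower. A gene could be retained through its level in colon alone, and the others did not reach 1 TPM in enough libraries. Hoxb6 and Hoxb9 had the highest mean TPM in colon, with Hoxb6 at 0.08, 0.03 and 0.11 TPM in liver and 35.3, 53.1 and 84.7 TPM in colon (log2 difference -5.69, SE 0.29, adjusted p = 1.15e-06) and Hoxb9 listed at 0 in liver and at 48.2, 50.2 and 67.5 TPM in colon. No gene of the Hoxc cluster on chromosome 15 was retained (0 of 9), against 7 of 13 annotated coding genes in the Hoxa span on chromosome 6, 8 of 10 in the Hoxb span on chromosome 11 and 6 of 10 in the Hoxd span on chromosome 2. The last genes of the clusters, which mark the hindmost gut, were low or uneven. Hoxd13 reached at most 0.02 TPM, Hoxb13 was at 2.58, 0.02 and 0 TPM, and Hoxa13 was at 22.5, 0.92 and 0.94 TPM in the colon libraries, so colon library 1 stood apart from the others for Hoxa13. The same library was the highest for Hoxa7 at 49.6, 12.8 and 6.43 TPM, Hoxa9 at 45.6, 5.64 and 2.71 TPM, Hoxa10 at 41.1, 5.35 and 4.21 TPM and Hoxa11 at 11.7, 1.85 and 1.91 TPM, and the lowest for Hoxb6 and Hoxb9.

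**Figure D5:**
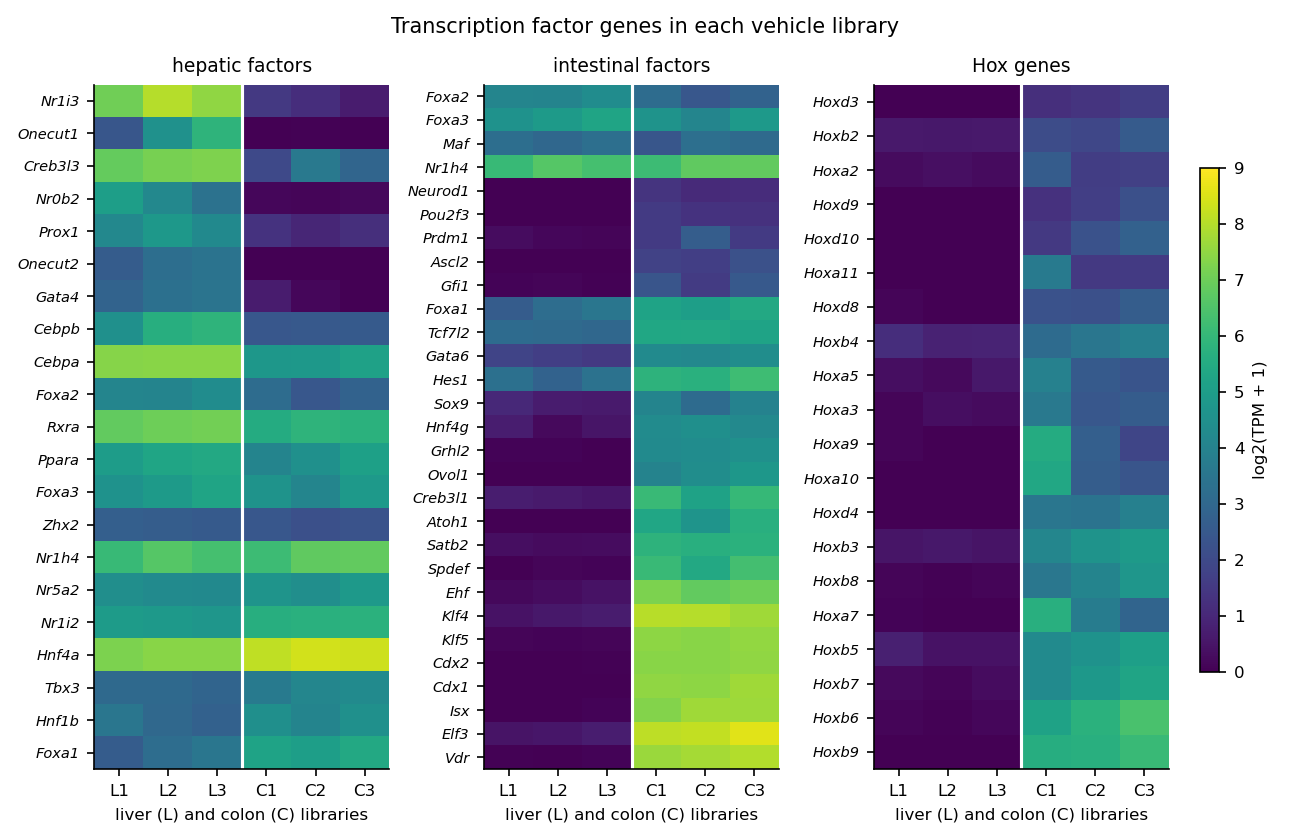
Expression of transcription factor and Hox genes in each vehicle library as log2(TPM + 1), liver libraries left and colon libraries right. Hepatic factors are in the left panel, intestinal factors in the middle and Hox genes in the right panel, where the liver columns stay near 0 and Hoxa genes are brightest in colon library 1. Foxa1, Foxa2, Foxa3 and Nr1h4 belong to both factor lists.

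RNA of some splicing regulators with tissue-restricted expression differed as well. Of 26 retained of 34 listed, 1 was at least 4-fold higher and 7 at least 4-fold lower in liver, against 4 and 3 after median ratio scaling. Over all genes the shares were 6.73% and 16.6% as deposited and 9.7% and 9.88% after that scaling. The balance of this list thus depended on scaling, and its counts are too small to set it apart from all genes. Esrp1, an epithelial splicing regulator, stood at 0.04, 0.08 and 0.11 TPM in liver and 109, 102 and 104 TPM in colon (log2 difference -6.63, SE 0.10, adjusted p = 2.10e-09). Its paralog Esrp2 was expressed in both, at 59.9, 50.9 and 48.7 TPM in liver and 42.9, 44.9 and 58.7 TPM in colon (adjusted p = 0.416), and had a log2 difference of 1.04 after median ratio scaling (adjusted p = 0.000744). Mbnl2, of the muscleblind family, stood at 10.2, 14.2 and 15.1 TPM in liver and 109.7, 90.8 and 89.2 TPM in colon (log2 difference -2.80, SE 0.16, adjusted p = 2.12e-06). Rbpms2, an RNA-binding protein, was the member at least 4-fold higher in liver, at 34.4, 45.4 and 51.7 TPM in liver and 12.6, 6.39 and 8.27 TPM in colon (log2 difference 2.18, SE 0.24, adjusted p = 8.67e-05).

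Some abundant genes held nearly equal shares of transcripts in the 2 organs as deposited. Among genes averaging at least 100 TPM in each, the smallest differences included those of Oaz1, the inhibitor of polyamine synthesis, at 408, 393 and 405 TPM in liver and 402, 382 and 426 TPM in colon (adjusted p = 0.983), and Itm2b, an integral membrane protein, at 834, 787 and 819 TPM in liver and 859.6, 790.0 and 798 TPM in colon (adjusted p = 0.964). Against the median gene these genes were higher in liver, with a log2 difference of 0.92 after median ratio scaling (adjusted p = 3.15e-05) for Oaz1 and a log2 difference of 0.92 after median ratio scaling (adjusted p = 2.71e-05) for Itm2b. Transcripts of the mitochondrial genome held 13.1 to 14.5% of TPM in liver and 16.9 to 17.9% in colon. Of its 13 coding genes 3 were called higher and 4 lower in liver (10 and 0 after median ratio scaling), with mt-Nd2 at 9448, 9250.0 and 9676 TPM in liver and 4464, 3466 and 3932 TPM in colon (log2 difference 1.27, SE 0.11, adjusted p = 2.35e-05) and mt-Co1 at 25577, 22987 and 23793 TPM in liver and 38711, 41976 and 43123 TPM in colon (log2 difference -0.77, SE 0.11, adjusted p = 0.000296).

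Retained markers of neighbouring organs were few for pancreas and squamous epithelium. By contrast, 8 of 10 white adipose and 10 of 16 small intestinal genes were retained. Of 16 exocrine pancreas genes 3 were retained and 5 were at 0 in all 6 libraries, and the summed level ranged between 49.2 and 69.1 TPM in liver and between 71.5 and 145 TPM in colon, nearly all of it from Cela1 and, in colon, Clps. White adipose genes summed to 229.9 to 1021 TPM in liver, mostly the lipogenic gene Thrsp, and to 232 to 284 TPM in colon. The fat hormone gene Adipoq stood at 0.09, 0 and 0.07 TPM in liver and 6.12, 5.04 and 2.51 TPM in colon, and 4 of 8 retained adipose genes were at least 4-fold lower in liver (2 after median ratio scaling), Cfd among them. The part of fat attached to the colon in these values was not tested. Small intestinal genes were not wholly absent from colon, as 6 of 10 retained were at least 4-fold lower in liver, with the sucrase gene Sis listed at 0 in liver and at 12.4, 24.001 and 35.8 TPM in colon, while the Paneth cell defensins Defa17, Defa21 and Defa24 were at 0 in all 6 libraries. Of 8 squamous epithelial genes 1 was retained, Sprr1a, at 0, 0.12 and 0.26 TPM in liver and 15.6, 102 and 34.1 TPM in colon, while Krt5, a basal keratin, averaged 0 ± 0 TPM in liver and 0.0967 ± 0.0874 TPM in colon. Erythroid genes were higher in liver in all 5 retained, and the globin gene Hbb-bs stood at 227, 169 and 151 TPM in liver and 36.6, 12.2 and 10.7 TPM in colon (log2 difference 3.33, SE 0.43, adjusted p = 0.000183). Its near-identical neighbour Hbb-bt makes the split between them uncertain, and the part of blood in other differences was not tested.

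Genes with a known sex bias in mouse liver were read beside Xist. Cyp2b9, a female-biased P450 gene, stood at 227, 254 and 225 TPM in liver and was listed at 0 in colon. The male-biased Cyp4a12a was not retained, at 0.23, 0 and 0.18 TPM in liver and 0.02, 0 and 0 TPM in colon, and neither was Elovl3, at 0.13, 1.91 and 3.55 TPM in liver and 0, 0 and 0.07 TPM in colon. Hsd3b5, another male-biased gene, was retained at 4.91, 36.05 and 68.1 TPM in liver and 0, 0 and 0 TPM in colon, with liver library 1 below libraries 2 and 3.

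Libraries of a tissue lay close together. The Pearson correlation of log2(TPM + 1) was 0.98 to 0.991 between libraries of the same tissue and 0.478 to 0.496 between tissues, given as a description over 14459 genes. The median range among the 3 libraries was 0.25 in liver and 0.28 in colon on the log2 scale, against differences of 2 or more for the groups above. The tissues were compared again in the libraries of mice given RECTAS at 100 mg/kg in the same vehicle, which share no library with the vehicle groups. There 936 of the same genes were at least 4-fold higher in liver and 2483 at least 4-fold lower. Of the genes at least 4-fold higher in vehicle liver 91.4% were so under RECTAS, which is 94.98% of the RECTAS list. Of those at least 4-fold lower 94.7% were so under RECTAS, or 91.5% of that list.

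Whether the liver minus colon difference depended on the drug was tested as the interaction of tissue and treatment over 12 libraries and 15377 genes. By limma with Benjamini-Hochberg adjustment the signed difference was higher under RECTAS than under vehicle in 2 genes (0.013%) and lower in 1 (0.0065%). The sign counts here, so Ddit4 is among the higher although its tissues lay closer together under RECTAS. By limma 666 of the 15377 genes had an unadjusted p under 0.05. That is a smaller share than the 0.05 that would fall there with no true difference. Arrdc2, an arrestin domain protein, stood at 21.9, 35.4 and 29.1 TPM in RECTAS liver and 8.04, 9.39 and 8.45 TPM in vehicle liver, and at 13.7, 15.03 and 11.8 TPM in RECTAS colon and 15.04, 18.7 and 14.9 TPM in vehicle colon (interaction log2 1.85, SE 0.23, adjusted p = 0.0378). Ddit4, an inhibitor of mTORC1 induced by stress and glucocorticoids, stood at 22.2, 24.2 and 19.7 TPM in RECTAS liver and 2.52, 4.43 and 3.67 TPM in vehicle liver, and at 26.8, 28.9 and 20.3 TPM in RECTAS colon and 20.3, 15.97 and 23.3 TPM in vehicle colon (interaction log2 2.03, SE 0.26, adjusted p = 0.0378). In both genes the RECTAS and vehicle liver libraries did not overlap. These are the values that gave the calls, so the gap is not separate support. The gene called in the other direction, Gm28503, is a pseudogene of 147 bases that was listed at 0 in every library but those of RECTAS colon, where it stood at 5.92, 9.46 and 3.24 TPM (interaction log2 -2.75, SE 0.34, adjusted p = 0.0378). Leaving out any 1 of the 12 libraries gave 0 to 2 called genes, and none of the 3 genes was called in every such fit.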

How the data were processed

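Per the labels' protocols, TRIzol extracts entered a TruSeq stranded kit for messenger RNA. The authors deposited gene-level TPM, used here as deposited. The submitters' processing notes list HISAT2 2.2.0, RSEM 1.3.0 and GRCm38 and give no role for any. No read numbers are given in the sources used here, hence no counting interval or floor. GENCODE M21 supplied coordinates for 55141 identifiers. Libraries were grouped by their labels. Genes were tested as log2(TPM + 1) by limma 3.58.1 in R 4.3.3 (two-sided, variance trended on the mean, Benjamini-Hochberg at 0.05), and the fit was tested on simulated data. Gene lists are described by counts and medians, without a set test. The members, lists and named-gene rule were chosen with earlier results of these data known. The rule takes the 10 leading coding genes per direction, up to 5 called members per list and direction, every factor, isozyme and carry-over marker, and the genes of the clusters. Of 182 genes named, 22 fall outside it and were chosen after their values were seen. Alternatives covered pseudocount, filter, scaling, variance model, a replicate block and leaving out libraries. Promoters come from RefSeq (GRCm38.p6). A few genes within the rule are not reported here.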

Additional observations from a re-analysis of the deposited data

Results flagged for a closer look

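In the fit of all 12 libraries limma's interaction of tissue and treatment passed Benjamini-Hochberg adjustment in 3 of 15377 genes. The library values given for them are those that gave these calls, so they are not separate support. For Arrdc2 the interaction was log2 1.85, SE 0.23, adjusted p = 0.0378, with all 3 RECTAS liver libraries above all 3 vehicle liver libraries. For Ddit4 it was log2 2.03, SE 0.26, adjusted p = 0.0378, again with all 3 RECTAS liver libraries above all 3 vehicle liver libraries. For the pseudogene Gm28503 it was log2 -2.75, SE 0.34, adjusted p = 0.0378, with all 3 RECTAS colon libraries above 0 and the other 9 libraries listed at 0. With 1 of the 12 libraries left out, limma's adjusted p ran over 0.00999 to 0.128 and passed in 1 of 12 fits for Arrdc2, 0.0558 to 0.128 and passed in 0 of 12 fits for Ddit4 and 0.000435 to 0.128 and passed in 2 of 12 fits for Gm28503. TPM of a gene of 147 bases is imprecise. No group held enough libraries for a test of single outlying values.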

How the results depend on the processing

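The direction held for all 137 named genes at least 4-fold apart under every alternative run. The call held too, except for Mup15 and Mup17 at an adjusted p under 0.01 (adjusted p = 0.0132 and 0.0157) and for Mup17 without liver library 2 (adjusted p = 0.0538). Over all 3371 genes at least 4-fold apart the sign changed in 4 with RECTAS in place of vehicle libraries and in 0 under each other alternative. The counts of calls rested on scaling: 5234 higher and 5573 lower after median ratio scaling and 5073 and 5632 after quantile normalisation, against 2482 and 9661 as deposited. Genes at least 4-fold lower numbered 1429 after median ratio scaling, 1394 after quantile normalisation, 3683 with a pseudocount of 0.1 and 1203 with 5, against 2398. Leaving out 1 library gave 2293 to 2519 higher and 9284 to 9682 lower calls, with 951 to 978 and 2305 to 2475 at least 4-fold. Of the counts for gene lists 47 of 1800 moved by over 1.5 times, mostly under another pseudocount or scaling. The interaction calls were unstable. They numbered 1 higher and 0 lower without a filter and 1 and 0 with the replicate block. With a pseudocount of 5 they numbered 0 and 0. There limma gave 645 of 15377 genes an unadjusted p under 0.05, again a smaller share than 0.05. Leaving out 1 library gave 0 to 1 higher and 0 to 2 lower. Genes near 1 TPM are the least certain, since depth is unknown and the pseudocount sets their difference.

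Same-numbered liver and colon libraries correlated weakly, by 0.0265, 0.0767 and 0.0287, in their deviations from the group means. Not every library correlated best with its own number. Deviations from means of so few libraries cannot tell whether the replicate numbers pair the libraries. With the replicate block 2455 genes were higher and 9572 lower, 973 and 2399 of them at least 4-fold.

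The sign turned, as log2 differences, after median ratio scaling for Aqp8 0.17, Cald1 0.74, Cela1 0.60, Cpt1a 0.59, H2-Aa 0.62, Itm2b 0.92, Krt18 0.21, Lgr5 0.60, Lrat 0.60, Nr1h4 0.66, Oaz1 0.92, Pigr 0.0777, Sult1a1 0.80, Xist 0.33 and mt-Co1 0.15. The sign also turned after quantile normalisation for Cald1 0.20, Cela1 0.21, H2-Aa 0.37, Itm2b 0.16, Lgr5 0.76, Lrat 0.68, Nr1h4 0.16, Oaz1 0.14 and Sult1a1 0.0616. The sign also turned after rescaling without mitochondrial and the 20 highest genes for Itm2b 0.15, Lgr5 0.0116, Oaz1 0.15 and Sult1a1 0.0252. The sign also turned in the RECTAS libraries for Cd79b -0.00836, Esrp2 -0.16 and Lgr5 0.25. The sign also turned with array weights for Aqp8 0.13, Cald1 0.13, Esrp2 -0.052 and Lgr5 0.0601. With 1 library left out the log2 differences that crossed 0 ranged as Aqp8 -1.44 to 0.00902, Cald1 -0.47 to 0.32, Itm2b -0.0264 to 0.0344, Lgr5 -0.24 to 0.0195, Oaz1 -0.0398 to 0.0378 and Sult1a1 -0.31 to 0.0253. The cause was not tested.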

Other observations

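Liver library 1 lay apart from liver libraries 2 and 3 in several metabolic genes. Thrsp, a regulator of fat synthesis, stood at 151, 703 and 947 TPM in the liver libraries, Hsd3b5 at 4.91, 36.05 and 68.1 TPM, Cyp4a14 at 11.1, 63.7 and 106 TPM, Gls2, the liver glutaminase, at 407, 145 and 144 TPM and Onecut1 at 4.25, 22.5 and 57.3 TPM. Library 1 was the lowest of the 3 in all of these but Gls2, in which it was the highest. The widest range among liver libraries averaging at least 10 TPM included Mup15 at 1.58, 198 and 420.2 TPM and Mup17 at 1.17, 142 and 319.9 TPM, near-identical major urinary protein genes, and Gm11518 at 207, 0.13 and 145 TPM. These genes were chosen after their values were seen, except those with the widest range.

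Some colon genes differed widely among the colon libraries. The muscle genes Actg2, at 1183, 388 and 349 TPM, and Myh11, at 499, 215 and 231 TPM, were highest in library 1. Epithelial genes took no single order: Muc2 at 8186, 3697 and 6107 TPM and Slc26a3 at 335, 322 and 171 TPM were highest in library 1, Car1 at 7456, 25529 and 16720.3 TPM and Slc51a at 149, 316 and 313 TPM lowest in library 1, and Reg3b at 141, 1713 and 236 TPM highest in library 2. The labels do not say which stretch of the colon each library came from.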
